A study of Mus musculus with 8 samples.

Results

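Killer cell lectin-like receptors are surface receptors of natural killer (NK) cells and of some T cells. The 10 genes described here were taken by name from the 32285 genes of the deposited tables. They are Klra7, Klra8, Klrb1c, Klrc1, Klrd1, Klre1, Klrg1 and Klrk1, 8 lectin-like receptor genes, with Ncr1, an immunoglobulin-like NK receptor, and Tyrobp, a signalling adaptor. RNA was read from single cells of the deep cervical lymph nodes, which drain the brain and its coverings, of C57BL/6 mice at day 20 after an injection into the brain. There were 5 libraries of 10x Genomics 5' chemistry from live immune cells sorted by FACS. The first, depleted anti-CTLA-4, came from mice with GL261 cells, a mouse glioma line, given anti-CD20, which removes B cells, and an antibody against the T cell checkpoint receptor CTLA-4. The depleted isotype library came from mice with GL261 cells given anti-CD20 and isotype IgG. The anti-CTLA-4 and isotype libraries came from wild-type mice with GL261 cells given the named antibody and no anti-CD20. The saline control library came from mice injected with DPBS in place of tumour cells, and the sources used here do not say whether they received isotype IgG. How many mice went into a library is not stated there either. Each group is 1 library.

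The libraries held 9014 to 11791 barcodes and 54715065 to 63497466 UMIs, counts of distinct captured molecules, and 45168 cells were kept. Cells of the depleted libraries were deeper, with a median of 6018 UMIs under anti-CTLA-4 and 5880 under isotype, against 4259 in the anti-CTLA-4, 4577 in the isotype and 4680 in the saline control library. The isotype library stood apart in its median mitochondrial share, 1.00% against 1.77% to 2.09% in the other 4. Of the kept cells 2149 (4.76%) carried a barcode that also occurs in another library. Among NK-like cells that was 18 of 290, and none of the 18 shared it with another NK-like cell. The NK-like class was 1 cluster of 290 cells, found without any lectin-like receptor gene, Ncr1 or Tyrobp among the clustering genes. It held 75, 61, 56, 56 and 42 cells in the depleted anti-CTLA-4, depleted isotype, anti-CTLA-4, isotype and saline control libraries, the order kept for all lists of 5 values. All 13 NK markers had UMIs in each library, with a summed level of 9680 to 11500 CPM (a gene's UMIs scaled to a common total of the UMIs of the class and library). The 6 T cell markers summed to 73.7 to 242 CPM there, the 5 B lineage markers to 2.35 to 11.8 CPM, and the 12 markers of other innate lymphoid cells to 652 to 884 CPM with Il1rl1 at 0. Values after ± are SDs over the 5 libraries, which differ in treatment, unless named as SE. Intervals are at 95% and reflect counting error alone.

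Lectin-like receptors sample the surface of neighbouring cells. The Ly49 receptors (Klra genes) and the CD94/NKG2 pairs bind classical and non-classical MHC class I molecules, and most of them carry an inhibitory tail that damps the killer cell when a healthy neighbour is met. Activating members lack that tail and signal through partner proteins with tyrosine-based motifs such as DAP12, the product of Tyrobp, or DAP10, the product of Hcst. In mice the lectin-like genes lie together on chromosome 6 in the NK gene complex, and a single NK cell uses only some of the Ly49 genes. In the RefSeq annotation of GRCm38.p6 the complex members stood in the order Klrb1c (128778485 to 128788641), Klre1 (129559365 to 129585828), Klrd1 (129588092 to 129598775), Klrk1 (129610323 to 129623903), Klrc1 (129666015 to 129682852), Klra8 (130115226 to 130129898) and Klra7 (130218605 to 130233322), with Klrg1 apart at 122270596 to 122282833. Ncr1 (4337715 to 4345184) and Tyrobp (30413782 to 30417582) lie on chromosome 7.

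Klra7 and Klra8 are similar Ly49 genes of the same complex with different distributions over cells in these data, so their start regions are printed side by side. Both are RefSeq windows of GRCm38.p6 on the minus strand, 250 bases before to 50 after a start, at chr6:130233273-130233572 for Klra7 and chr6:130129849-130130148 for Klra8. Each gene has 2 windows in the table and the most alike pair is shown. Capitals mark the bases that differ in the alignment of the pair.
Klra7: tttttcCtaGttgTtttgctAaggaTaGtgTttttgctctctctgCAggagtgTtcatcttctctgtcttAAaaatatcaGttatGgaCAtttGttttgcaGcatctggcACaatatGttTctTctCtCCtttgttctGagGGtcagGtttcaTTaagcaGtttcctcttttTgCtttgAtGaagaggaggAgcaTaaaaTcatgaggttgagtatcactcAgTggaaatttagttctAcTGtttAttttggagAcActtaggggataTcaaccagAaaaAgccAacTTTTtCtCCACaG
Klra8: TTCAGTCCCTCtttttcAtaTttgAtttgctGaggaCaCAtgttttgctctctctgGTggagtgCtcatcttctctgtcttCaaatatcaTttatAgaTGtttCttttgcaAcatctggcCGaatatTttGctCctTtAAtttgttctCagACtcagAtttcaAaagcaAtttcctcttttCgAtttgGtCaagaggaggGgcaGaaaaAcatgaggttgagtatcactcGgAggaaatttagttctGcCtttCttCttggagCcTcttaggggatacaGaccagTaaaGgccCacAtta
Of 314 aligned columns 238 were identical (75.8%) and 28 held a gap. The windows lie mostly before the start, and the likeness of the transcripts was not measured. Reads of like genes may be split or lost in counting, so the UMIs of single Ly49 genes are uncertain.

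The windows of Klrb1c, Klrk1 and Ncr1 are printed because each of these receptors had a UMI in at least 90.0% of NK-like cells. Capitals mark TGTGGT or its reverse complement ACCACA, the core letters of the motif of Runx factors, which are known regulators of NK and T cell genes. The windows lie at chr6:128788592-128788891 (minus strand), chr6:129623815-129624114 (minus strand) and chr7:4337465-4337764 (plus strand).
Klrb1c: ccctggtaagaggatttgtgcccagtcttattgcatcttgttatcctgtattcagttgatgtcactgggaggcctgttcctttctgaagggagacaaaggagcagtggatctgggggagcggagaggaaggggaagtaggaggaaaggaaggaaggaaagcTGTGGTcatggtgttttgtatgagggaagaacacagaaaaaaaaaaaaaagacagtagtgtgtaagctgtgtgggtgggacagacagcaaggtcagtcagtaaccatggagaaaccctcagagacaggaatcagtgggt
Klrk1: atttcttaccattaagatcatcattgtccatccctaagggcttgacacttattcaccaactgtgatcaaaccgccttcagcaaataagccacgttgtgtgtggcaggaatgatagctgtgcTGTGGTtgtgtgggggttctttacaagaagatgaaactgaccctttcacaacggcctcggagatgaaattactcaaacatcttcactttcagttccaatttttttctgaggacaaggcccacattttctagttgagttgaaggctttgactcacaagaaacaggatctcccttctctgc
Ncr1: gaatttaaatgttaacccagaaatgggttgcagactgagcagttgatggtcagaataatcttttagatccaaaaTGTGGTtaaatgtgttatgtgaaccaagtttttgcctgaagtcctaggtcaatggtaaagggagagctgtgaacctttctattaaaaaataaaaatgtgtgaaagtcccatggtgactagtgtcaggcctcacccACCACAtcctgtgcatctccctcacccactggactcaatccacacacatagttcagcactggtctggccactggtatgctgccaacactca
Searched on both strands, these letters occurred in 5506 of 32851 windows of 300 bases (16.8%). Of the 10 genes 7 had a window, and 5 of those, Klrb1c, Klrc1, Klre1, Klrk1 and Ncr1, held the letters in at least 1 window. This counts genes, while the 16.8% counts windows, so the 2 are not alike. Klra7, Klra8, Klre1 and Ncr1 had 2 windows each, of which Klre1 held the letters in 1 and Ncr1 in 2. Klra7 and Klra8 did not hold them in these windows, and no windows were used for Klrd1, Klrg1 and Tyrobp. A match describes the letters and not a bound site.

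NK-like cells carried RNA of all 10 genes, and 7 of them, Klra8, Klrb1c, Klrc1, Klrd1, Klre1, Klrk1 and Ncr1, stood highest there among the 16 classes, with ranges over the libraries that did not meet those of the next class. Their share of the kept UMIs differed widely. NK-like cells held 93.5% of the Klra8 UMIs, 86.1% of the Ncr1 UMIs and 67.0% of the Klrb1c UMIs, but 36.1% of Klrc1, 31.4% of Klra7 and 5.98% of Klrd1 UMIs. For Klrd1, 55.9% of the UMIs came from the 10172 naive CD8 T-like cells. Tyrobp was spread over plasmacytoid dendritic-like (31.9%), NK-like (26.9%), mixed myeloid and dendritic (22.8%) and follicular B-like cells (12.9%). Klrg1 had 33.2% of its 425 UMIs in effector Treg-like cells, 28.2% in a cluster of innate lymphoid-like cells led by Areg and 11.3% in NK-like cells.

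**Figure D1:**
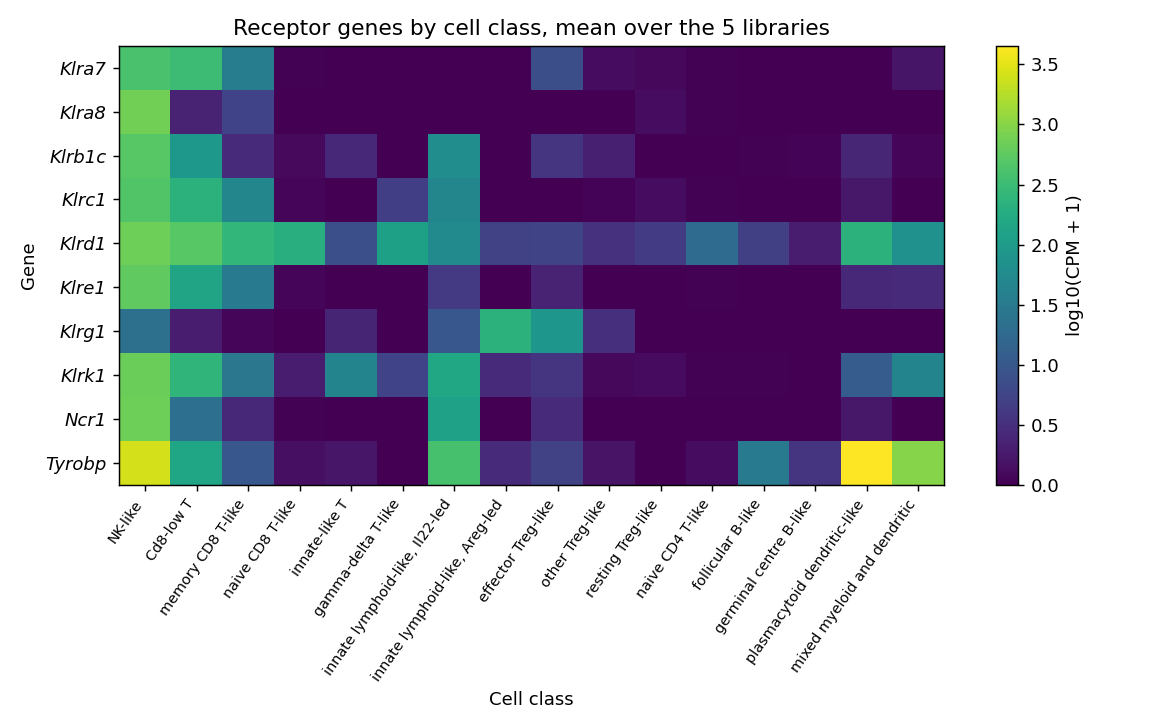
Level of each gene (rows) in 16 cell classes (columns) as log10(CPM + 1) of the mean over the 5 libraries, brighter for higher. The NK-like column is bright for every gene except Klrg1, which is brightest in the Areg-led innate lymphoid-like column, and Tyrobp is brightest in plasmacytoid dendritic-like cells.

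The activating receptors are given first. Klra8 encodes Ly49H, an activating Ly49 receptor known for its recognition of a mouse cytomegalovirus protein. It stood at 734, 720, 545, 930 and 857 CPM in NK-like cells, and 195 of 290 cells (67.2%, exact binomial interval 61.5% to 72.6%) had a UMI. Among the 16 classes compared, the next highest level was 4.47 ± 2.17 CPM in memory CD8 T-like cells. The remaining T cells, a mixed group of 4017 cells left out of the 16, held 32 of the 1604 Klra8 UMIs, and plasma cell-like cells, also left out, held 0. Klrk1 encodes NKG2D, which recognises stress-induced MHC-like ligands. It stood at 642, 795, 554, 646 and 759 CPM in NK-like cells and was found in 92.8% of them. Ncr1 encodes NKp46, in wide use as an NK cell marker, and stood at 654, 724, 777, 694 and 677 CPM in NK-like cells, found in 91.0%. Klrb1c encodes NK1.1, the antigen by which NK cells of C57BL/6 mice are commonly stained. It stood at 436, 522, 515, 499 and 592 CPM and was found in 90.0% of NK-like cells. Tyrobp stood at 2341, 2893, 2541, 2780 and 2759 CPM and was found in 287 of the 290 cells.

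Receptors that inhibit or pair came next. Klrc1 encodes NKG2A, the inhibitory partner of CD94, and stood at 434, 517, 403, 417 and 551 CPM in NK-like cells, found in 158 of 290 (54.5%, interval 48.6% to 60.3%). Klrd1 encodes CD94 itself and stood at 602, 722, 736, 711 and 752 CPM, found in 93.1%. Klre1, a mouse lectin-like receptor that pairs with the products of the Klri genes, stood at 499, 496, 565, 578 and 725 CPM, found in 89.0%. Klra7 encodes Ly49G, an inhibitory Ly49 receptor, and stood at 388, 329, 353, 377 and 568 CPM, found in 49.0%. Klrg1, an inhibitory receptor for cadherins that marks mature NK cells and short-lived effector T cells, had 24, 12, 5, 3 and 4 UMIs in NK-like cells, or 41.2, 28.2, 14.7, 8.50 and 13.6 CPM. It was found in 23 of 290 cells (7.93%). These shares depend on depth. With each cell thinned to 2000 UMIs, which left out 6 cells, Klrd1, Klrk1, Ncr1, Klrb1c and Klre1 were found in 63.0% to 73.2% of NK-like cells, Klra8 in 56.7%, Klrc1 in 41.9%, Klra7 in 35.6% and Klrg1 in 3.52%. In naive CD4 T-like cells, which should lack these receptors, the unthinned share was 7.11% for Klrd1 and 0.179% for Tyrobp, and Klra7 and Klra8 were each found in 2 of 10600 cells.

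**Figure D2:**
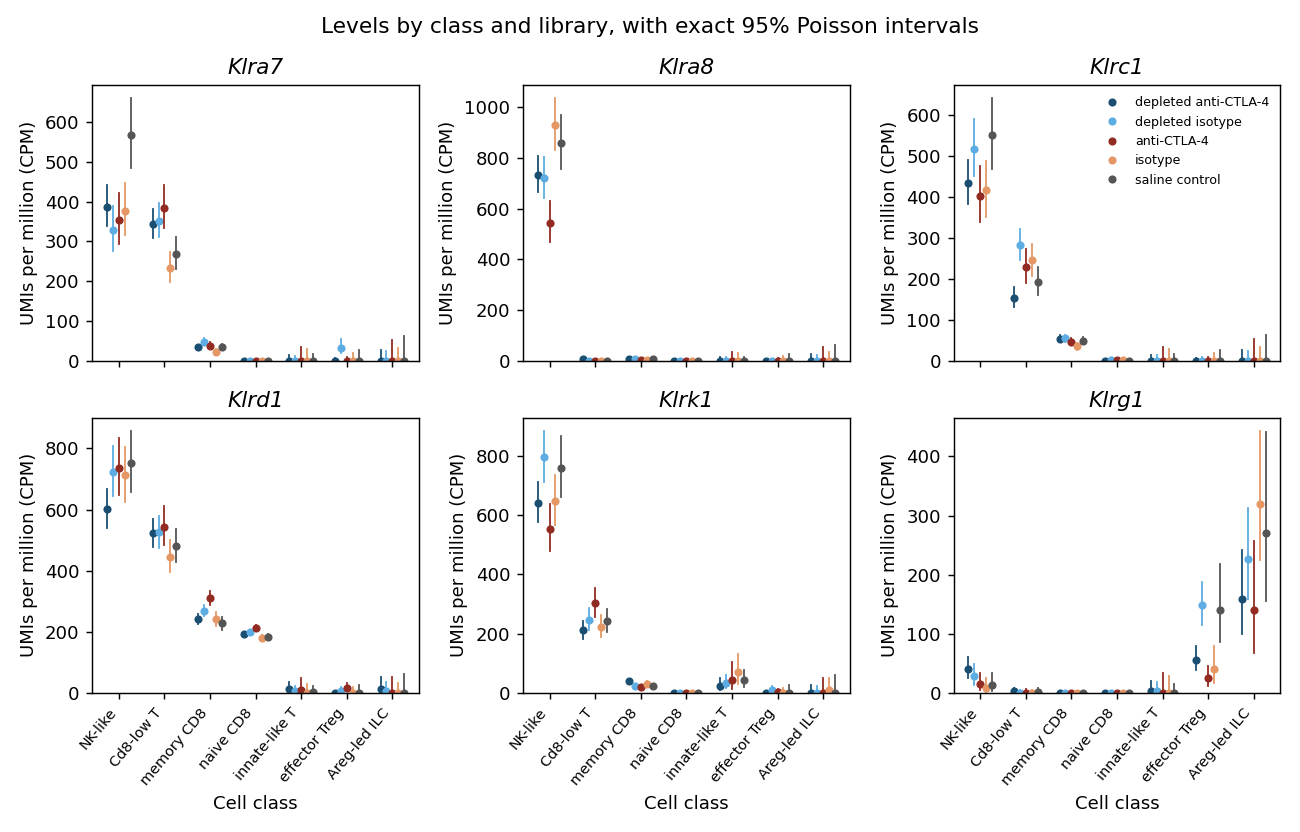
Level in CPM (vertical axis, from 0) of 6 genes in 7 cell classes (horizontal axis), with 1 point per library and exact 95% Poisson intervals as bars. Klra7 points of NK-like and Cd8-low T cells overlap, Klra8 points rise above 10 CPM in NK-like cells alone, and Klrd1 keeps 182 to 214 CPM in naive CD8 T-like cells.

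The comparison of NK-like with memory CD8 T-like cells asked which of the genes differ between the innate and the adaptive killer cells of the same nodes. All 10 were higher in NK-like cells, in 5 of 5 libraries each. The test was edgeR's quasi-likelihood test on UMIs summed per class and library with the library as a block, with Benjamini-Hochberg adjustment over all 8386 genes tested, of which 18.4% were called higher and 17.9% lower in NK-like cells at an adjusted p under 0.05. The median log2 difference of the 10 genes was 5.31, against -0.02 over all genes. Members with few UMIs in memory CD8 T-like cells, such as Klrg1, Ncr1 and Klrb1c, entered the test through the NK-like cells. The count and the median therefore say little by themselves. Ncr1 averaged 705 ± 47.9 CPM in NK-like and 1.68 ± 1.35 CPM in memory CD8 T-like cells, a log2 difference of 8.20 ± 0.16 (SE, edgeR adjusted p 2.06e-25). Tyrobp averaged 2663 ± 220 and 8.77 ± 6.55 CPM (log2 difference 7.87 ± 0.16), and Klrb1c 513 ± 55.9 and 1.78 ± 1.20 CPM (7.77 ± 0.17). Klra8 averaged 757 ± 147 CPM in NK-like and 4.47 ± 2.17 CPM in memory CD8 T-like cells, a log2 difference of 6.98 ± 0.14. Klrg1 had 48 UMIs in NK-like and 2 in memory CD8 T-like cells, a ratio of 157 per UMI of the class with a counting interval of 41.2 to 1330. The other 5 genes differed less, since memory CD8 T-like cells carried their RNA too. The log2 differences were 4.27 ± 0.12 for Klrk1, 3.87 ± 0.14 for Klre1, 3.18 ± 0.13 for Klra7, 2.95 ± 0.10 for Klrc1 and 1.12 ± 0.08 for Klrd1 (edgeR adjusted p 2.76e-13 for Klrd1, the largest of the 5).

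Between memory and naive CD8 T-like cells, 6 genes passed the filter on low counts, and all 6 were higher in memory cells in 5 of 5 libraries. Of 10599 genes tested 17.2% were called higher and 13.5% lower in memory cells. The median log2 difference was 7.49 over the 6 genes and -0.004 over all genes. All but Klrd1, which had 12896 UMIs in naive cells, entered the test through the memory cells, so the count says little by itself. Klrc1 averaged 47.3 ± 7.94 CPM in memory and 0.18 ± 0.18 CPM in naive cells (log2 difference 8.26 ± 0.20, edgeR adjusted p 7.22e-27), Klre1 30.2 ± 11.3 and 0.17 ± 0.12 CPM (7.63 ± 0.23), and Klrk1 27.5 ± 8.07 and 0.87 ± 0.41 CPM (4.91 ± 0.19). Klra7 had 462 UMIs in memory and 3 in naive cells, a ratio of 781 with a counting interval of 266 to 3800. Klra8 had 61 and 1 UMIs, a ratio of 309 (53.5 to 12400). Klrd1 differed least. It averaged 258 ± 32.5 CPM in memory and 194 ± 13.0 CPM in naive CD8 T-like cells, a log2 difference of 0.47 ± 0.04 (edgeR adjusted p 2.56e-12). A Klrd1 UMI was found in 62.3% of naive CD8 T-like cells, against 7.11% of naive CD4 T-like cells, while Klrc1, the gene of its NKG2A partner, was under 1 CPM there. Klrb1c, Klrg1, Ncr1 and Tyrobp did not pass the filter in this comparison and stood at 1.78, 0.15, 1.68 and 8.77 CPM in memory cells.

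Within the memory CD8 T-like class the genes were unevenly spread over its clusters. The largest, led by Gzmm and Ly6c2, held 438 cells with 43.3 CPM of Klra7 and 43.8 CPM of Klre1. The next, led by Ly6c2 and Cd8b1, held 432 cells with 12.3 CPM of Klra7 (interval 8.98 to 16.4) and 7.73 CPM of Klre1 (5.18 to 11.1). A cluster of 140 cells led by Hspa1a and Ifng carried 83.6 CPM of Klra7 and 88.5 CPM of Klrk1, and it held 23 of the 24 Ncr1 UMIs and 77 of the 119 Tyrobp UMIs of the class. These lay in few of its cells, 3.57% for Ncr1 and 5.00% for Tyrobp. A small cluster of 54 cells led by Gzmk, Pdcd1 and Tigit had 167 CPM of Klrc1 (133 to 208). Klrd1 ranged from 238 to 324 CPM over the clusters of at least 54 cells. The clusters take different shares of each library: the first made up 41.0%, 32.4%, 26.3%, 19.0% and 27.7% of the class, and the second 25.3%, 35.4%, 23.4%, 35.8% and 33.0%.

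A further T cell class of 491 cells in 2 clusters carried several of the genes at levels near those of NK-like cells. It had 703 CPM of Cd3e but 73.0 CPM of Cd8a and 2.14 CPM of Cd4, with 9350 CPM of Ccl5 and 433 CPM of Ikzf2, and is called Cd8-low T cells here. It was set apart after its values were seen, so it is described without a test. Klra7 stood at 343, 352, 385, 232.5 and 269 CPM in Cd8-low T cells, and the ranges of NK-like and Cd8-low T cells overlapped, with NK-like cells higher in 3 of 5 libraries. Klra8 had 6 UMIs in 2 of the 491 cells, so 256 cells had Klra7 without Klra8 and 0 had Klra8 without Klra7. Klrd1 stood at 522, 526, 544, 445 and 482 CPM, Klrc1 at 153, 282, 229, 245 and 193 CPM and Klrk1 at 211, 248, 302, 223 and 243 CPM. Each of the 3 was below NK-like and above memory CD8 T-like cells in all 5 libraries. Klrb1c stood at 122, 69.9, 88.2, 96.8 and 63.8 CPM, Klre1 averaged 137 ± 33.8 CPM and Tyrobp 145 ± 44.8 CPM. Ncr1 was low, at 32.5, 23.7, 20.6, 1.56 and 25.8 CPM, and found in 6.31% of cells. Among the other Ly49 genes Klra6, chosen after its values were seen, went the other way from Klra8, with 113 ± 14.4 CPM in Cd8-low T cells, 19.2 ± 10.3 CPM in NK-like cells and 18.8 ± 3.87 CPM in memory CD8 T-like cells.

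NK cells are known to use the Ly49 genes in varying sets. Of 9 Ly49 genes counted per cell, NK-like cells had 2.65 ± 1.44 (SD over 290 cells), with library means of 2.75, 2.54, 2.43, 2.77 and 2.79. None of the 9 was found in 10.0% of the NK-like cells and 29.3% had at least 4. Cd8-low T cells had a mean of 1.43 with 25.5% at none, memory CD8 T-like cells a mean of 0.398 with 72.7% at none, and innate-like T cells had none. The count depends on depth and on how reads of like genes are shared out.

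**Figure D3:**
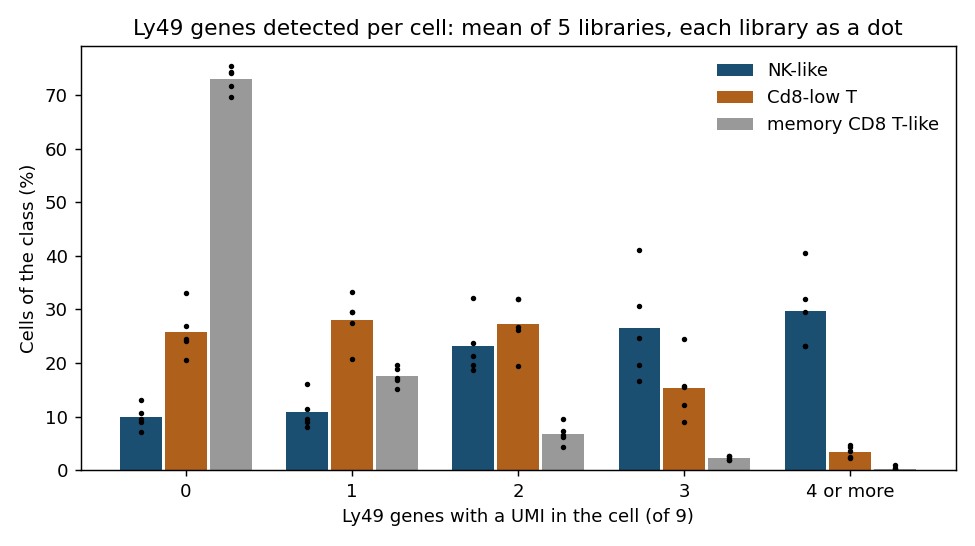
Share of cells (vertical axis, %) with 0, 1, 2, 3 or at least 4 of 9 Ly49 genes detected (horizontal axis) in NK-like, Cd8-low T and memory CD8 T-like cells. Bars are means of the 5 libraries and dots are single libraries. Most memory CD8 T-like cells have none, and 4 or more is most common in NK-like cells.

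Within NK-like cells Klrc1 was found less often beside Klra8. Klrc1 had a UMI in 42.1% of the 195 cells with Klra8 and in 80.0% of the 95 cells without it. By library the shares with and without Klra8 were 30.8% and 87.0% under depletion with anti-CTLA-4, 47.7% and 70.6% under depletion with isotype, 40.0% and 73.1% under anti-CTLA-4, 50% and 78.6% under isotype and 44.4% and 93.3% in the saline control. The share was lower with Klra8 in 5 of 5 libraries. Over all libraries together cells with Klra8 were not shallower, with a median of 6300 UMIs against 5842 without it. They were shallower in the depleted isotype (5906.5 against 6951) and isotype (5689 against 5904) libraries and deeper in the others. At 2000 UMIs per cell the shares over all 284 cells were 27.6% and 62.9%, and again lower with Klra8 in 5 of 5 libraries. Klra7 and Klra8 did not separate in this way. Klra7 was found in 55.9% of cells with Klra8 and 34.7% of those without, which at equal depth came to 39.5% and 33.3%, and 109 cells held both. Klrc1 was found in 43.0% of the cells with Klra7 and 65.5% of those without (35.6% and 48.9% at equal depth), and the thinned shares were the other way round in 2 libraries, anti-CTLA-4 (43.8% and 43.2%) and isotype (45.8% and 43.8%). Detection in the same cells is given without a test, since cells of a library are not replicates.

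**Figure D4:**
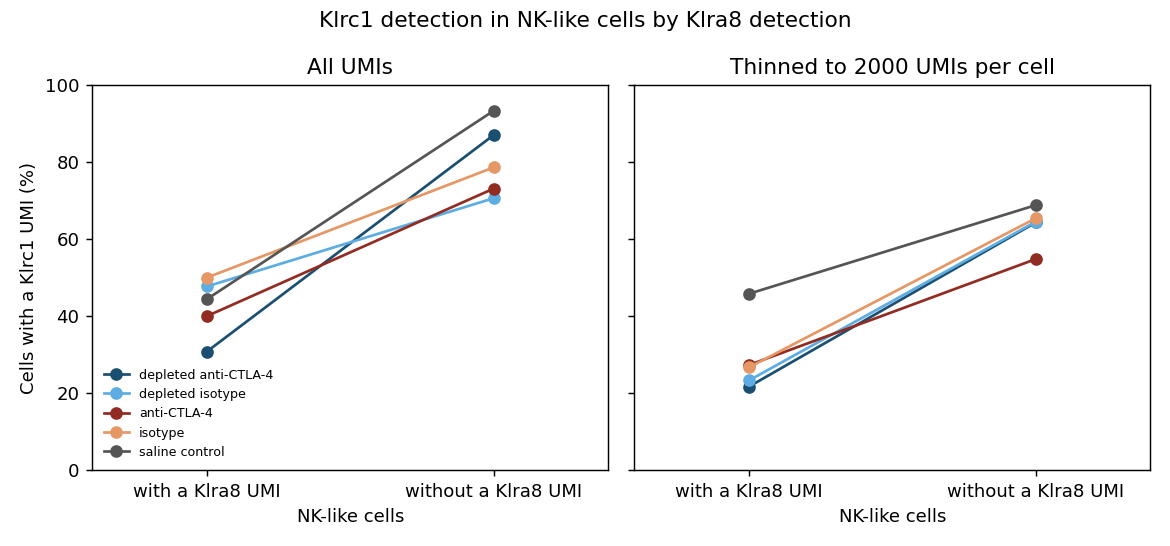
Share of NK-like cells with a Klrc1 UMI (vertical axis, %) among cells with and without a Klra8 UMI (horizontal axis), 1 line per library, from all UMIs on the left and from cells thinned to 2000 UMIs on the right. All 5 lines rise towards the cells without Klra8 in both panels.

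Innate-like T cells, 148 cells led by Zbtb16, Cd163l1 and Trdv4 and so carrying gamma-delta T cell genes as well, had little of the family. Klra7, Klra8, Klrc1, Klre1 and Ncr1 had 0 UMIs in 148 cells, which allows a share of cells with a UMI of up to 2.03%. This limit, here and below, is 3 counts over the cells, and it bounds cells with a UMI and not cells that express the gene. Against memory CD8 T-like cells 5 genes were tested and 4 were called lower. Those at 0 entered the test through the memory cells, so the count and the median say little by themselves. Of 8043 genes tested 16.0% were called higher and 14.5% lower in innate-like T cells, and the median log2 difference was -3.63 over the 5 genes, with those at 0 set to 3 counts over the class, and -0.03 over all genes. Klra7 was at least 12.4-fold, Klrc1 at least 17.0-fold and Klre1 at least 10.9-fold lower in innate-like T cells (edgeR adjusted p 2.06e-09, 4.21e-11 and 1.24e-08). Klrd1 averaged 6.89 ± 5.35 CPM in innate-like T and 258 ± 32.5 CPM in memory CD8 T-like cells, and fell by 5.27 on the log2 scale (SE 0.26, edgeR adjusted p 2.46e-21). Klrk1 was the one receptor of note in these cells, at 25.1, 33.8, 45.3, 70.2 and 42.8 CPM, and 31 of 148 cells (20.9%) had it. Its difference from the 27.5 ± 8.07 CPM of memory CD8 T-like cells was not called (log2 difference 0.26 ± 0.27, edgeR adjusted p 0.524), with innate-like T cells higher in 4 of 5 libraries. It was called, at a log2 difference of 0.86 and an edgeR adjusted p of 0.0246, where receptor genes were allowed in the clustering.

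In regulatory T cells Klrg1 was the one gene of the 10 that passed the filter on low counts, and its UMIs lay mostly in the effector subset. Effector Treg-like cells, named from Icos, Tigit, S100a4 and like markers, held Klrg1 at 56.7, 149, 25.6, 40.5 and 141 CPM, and 41 of 238 cells (17.2%, interval 12.6% to 22.6%) had it. None of the 810 resting Treg-like cells had a Klrg1 UMI, which allows a share of cells with a UMI of up to 0.370%. Klrg1 was at least 103-fold higher in effector than in resting cells, with 3 counts over the class as the floor (edgeR adjusted p 2.22e-12). Of the 10 genes 1 was tested and 1 was higher, while 17.2% of 6357 genes tested were called higher and 16.7% lower in effector cells. Klrg1 entered the test through the effector cells, so this count says little by itself. In the depleted isotype library 1 cell held 31 of the 69 Klrg1 UMIs of all Treg-like cells. A single effector Treg-like cell of that library held all 15 Klra7 UMIs of the class. Klrg1 was higher still in the Areg-led innate lymphoid-like cells, at 160, 226, 140, 320 and 271 CPM in 87 cells, above effector Treg-like cells in 5 of 5 libraries although the ranges over libraries overlapped. Klrg1 was found in 59.8% of those cells, while Klra7, Klra8, Klrb1c, Klrc1, Klre1 and Ncr1 were found in 0 of 87 cells, which allows a share of cells with a UMI of up to 3.45%. Innate lymphoid-like cells led by Il22 had 152 ± 84.0 CPM of Klrk1, 121 ± 122 CPM of Ncr1 and 387 ± 106 CPM of Tyrobp in 110 cells, and 8.82 ± 8.11 CPM of Klrg1. Their Ncr1 values were 202, 298, 22.4, 38.6 and 46.0 CPM, and the 29 Klrc1 UMIs of the class lay in 4 cells of the depleted libraries.

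The call counts of these class comparisons depended on the scaling of all genes. With UMI totals in place of edgeR's TMM factors, an alternative added after the data were seen, the median of all genes moved to 0.31 for NK-like over memory CD8 T-like cells, and the share of calls that were higher was 80.0% against 50.7%. That share was 39.0% against 56.1% for memory over naive CD8 T-like cells, 72.5% against 52.4% for innate-like T over memory CD8 T-like cells and 73.2% against 50.7% for effector over resting Treg-like cells, where the median of all genes moved to -0.07, 0.21 and 0.20 in this order. The genes called among the 10 kept their direction under both scalings.

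The treatments were compared within NK-like cells as ratios of summed UMIs per UMI of the class, for those of the 10 genes whose UMIs in the pair of libraries came to 20 or more. With 1 library per group no difference has a replicate check, so none is tested. Over the 5 comparisons 0 or 1 of 9 or 10 members passed 1.5-fold, against 20.3% to 23.3% of all genes. With so few members, a count of 0 or 1 cannot be set apart from these shares. The sums by themselves do not tell fewer cells with a receptor from less RNA per cell, and the part of each was not tested.

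For isotype over saline control, which sets mice with GL261 cells against mice without, 1 of 9 members passed 1.5-fold, against 22.8% of 4718 genes. It was Klra7, at 377 CPM in the isotype and 568 CPM in the saline control library, a ratio of 0.664 (interval 0.524 to 0.838). Klrc1 (0.756, 0.601 to 0.951) and Klre1 (0.798, 0.655 to 0.971) also had intervals below 1, and the median log2 ratio was -0.23 over the 9 members and -0.02 over all genes. All 4 glioma libraries had less Klra7 than the saline control library in NK-like cells, 329 to 388 against 568 CPM. For anti-CTLA-4 over isotype, 1 of 9 members passed 1.5-fold, against 23.3% of 4982 genes. It was Klra8, at 545 CPM in the anti-CTLA-4 and 930 CPM in the isotype library (0.586, 0.487 to 0.704), where 30 of 56 and 42 of 56 NK-like cells had a UMI. The ratio was 0.565 without the cell with most Klra8 UMIs of each library. The other 8 members had ratios of 0.857 to 1.12, all with intervals that hold 1.

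B-cell depletion was compared under each antibody. For depleted isotype over isotype 0 of 9 members passed 1.5-fold, against 21.9% of 5401 genes, and Klra8 (0.774, 0.660 to 0.908), Klrc1 (1.24, 1.003 to 1.54) and Klrk1 (1.23, 1.04 to 1.46) had intervals that leave out 1. For depleted anti-CTLA-4 over anti-CTLA-4 1 of 10 members passed 1.5-fold, against 20.5% of 6001 genes. It was Klrg1, with 24 UMIs under depletion and anti-CTLA-4 and 5 under anti-CTLA-4 alone, a ratio of 2.80 with an interval of 1.05 to 9.38. Klra8 had 734 CPM under depletion and anti-CTLA-4 and 545 CPM under anti-CTLA-4 alone (1.35, 1.13 to 1.61), and Klrd1 (0.818) and Ncr1 (0.841) had intervals below 1. For depleted anti-CTLA-4 over depleted isotype 0 of 10 members passed 1.5-fold, against 20.3% of 6321 genes. Tyrobp (0.809, 0.749 to 0.875), Klrk1 (0.807, 0.695 to 0.938) and Klrd1 (0.834) had intervals below 1, and the median log2 ratio was -0.20 over the 10 members and -0.0029 over all genes. The comparisons share libraries, so their values are not independent of each other.

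**Figure D5:**
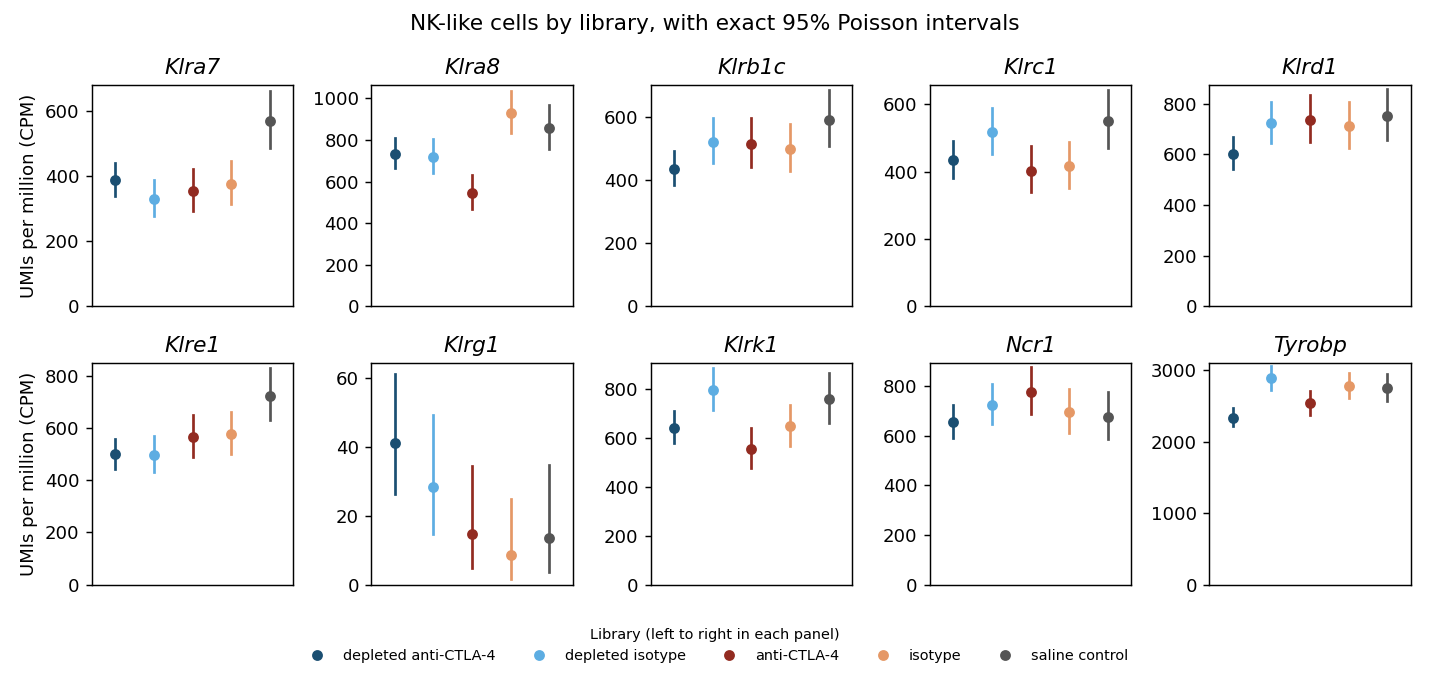
Level in NK-like cells (vertical axis, CPM, from 0) of the 10 genes in the 5 libraries, left to right depleted anti-CTLA-4, depleted isotype, anti-CTLA-4, isotype and saline control, with exact 95% Poisson intervals. Klra8 is lowest in the anti-CTLA-4 library (545 CPM) and Klra7 highest in the saline control library (568 CPM).

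Memory CD8 T-like cells gave wider ratios between libraries than NK-like cells. All of the 10 genes but Klrd1 had fewer UMIs there over the 5 libraries. Klra8 had 61 against 1499 in NK-like cells, Tyrobp 119 against 5250 and Klrk1 371 against 1351. The part of low counts in the ratios was not tested, and the members in each comparison are few. For depleted isotype over isotype 5 of 7 members passed 1.5-fold, against 11.4% of 9309 genes, with a median log2 ratio of 1.16 over the 7 and 0.05 over all genes. Klra7 stood at 47.4 CPM in the depleted isotype and 21.2 CPM in the isotype library (2.23, 1.58 to 3.22), and Klre1 at 41.0 and 17.8 CPM (2.31, 1.58 to 3.44). Tyrobp (log2 ratio 1.94), Klra8 (log2 ratio 1.65) and Klrc1 (log2 ratio 0.65) also passed. For anti-CTLA-4 over isotype 3 of 5 members passed, against 10.9% of 8989 genes. Klra7 had a ratio of 1.78 (1.22 to 2.64) and Klre1 of 2.35 (1.59 to 3.56), while Klrk1 had 0.637 (0.424 to 0.948). For depleted anti-CTLA-4 over anti-CTLA-4 3 of 7 passed, against 10.0% of 9541 genes, with a median log2 ratio of 0.23 over the 7. The 3 were Tyrobp (log2 ratio 3.25), Klra8 (log2 ratio 0.66) and Klrk1. Tyrobp, which averaged 8.77 ± 6.55 CPM in this class and ranged from 0.88 to 15.5 CPM over the libraries, had the widest ratio. Of its 119 UMIs in the class, 77 lay in 5.00% of the 140 cells of the Hspa1a-led cluster. Klra8 had 61 UMIs in the class over the 5 libraries, so both ratios rest on few UMIs. Klrk1 had 39.9 CPM under depletion and anti-CTLA-4 and 19.8 CPM under anti-CTLA-4 alone (2.01, 1.43 to 2.88). For depleted anti-CTLA-4 over depleted isotype 3 of 7 passed, against 8.35% of 9748 genes. Klrk1 again had the higher value in the depleted anti-CTLA-4 library (1.76, 1.32 to 2.38), and it was the only one of the 7 that did. The median log2 ratio was -0.42 over the 7 and -0.01 over all genes. For isotype over saline control 2 of 6 passed, against 12.0% of 8901 genes, Klra7 (0.645, 0.430 to 0.959) and Tyrobp, with 8 UMIs in the isotype and 32 in the saline control library (0.255, or 0.471 without the cell with most UMIs of each). The isotype library was the lowest of the 5 for Klra7, Klrc1 and Klre1 in this class. It is also the library with the lowest mitochondrial share, the smallest share of the Gzmm-led cluster (19.0%) and the largest share of the Hspa1a-led cluster (17.7%, against 5.06% to 15% in the other 4), which had the highest Klra7 and Klre1 levels of the clusters of at least 54 cells. The part of these in the ratios was not tested.

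In Cd8-low T cells the share of members past 1.5-fold was 1 of 7 for isotype over saline control (18.6% of 6531 genes), 2 of 7 for anti-CTLA-4 over isotype (20.0% of 6242 genes), 3 of 7 for depleted isotype over isotype (19.9% of 6846 genes), 1 of 8 for depleted anti-CTLA-4 over anti-CTLA-4 (18.8% of 7091 genes) and 2 of 8 for depleted anti-CTLA-4 over depleted isotype (15.5% of 7474 genes). Klra7 was lowest in the isotype library here too, where anti-CTLA-4 over isotype gave a ratio of 1.65 (1.33 to 2.06) and depleted isotype over isotype 1.51 (1.23 to 1.86). Klrc1 stood at 153 CPM in the depleted anti-CTLA-4 and 282 CPM in the depleted isotype library (0.544, 0.438 to 0.673), and Klrb1c at 122 and 69.9 CPM (1.74, 1.25 to 2.46). In Treg-like cells Klrg1 had 69 UMIs in the depleted isotype and 11 in the isotype library, a ratio of 3.45 (1.81 to 7.23) that was 2.61 without the cell with most UMIs of each. It had 35 UMIs in the depleted anti-CTLA-4 and 69 in the depleted isotype library, a ratio of 0.437 (0.282 to 0.665) that was 0.634 without those cells. Innate-like T cells had under 20 UMIs of each member in every pair of libraries and gave no ratio.

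Other genes of the same system were read from lists. Of 11 other Ly49 genes 5 were tested between NK-like and memory CD8 T-like cells, and 4 were higher in NK-like cells and 0 lower by edgeR's quasi-likelihood test with Benjamini-Hochberg adjustment. The 4 were Klra1, Klra3, Klra4 and Klra9. Klra4, Ly49D, the other activating Ly49 receptor of C57BL/6 mice, averaged 845 ± 90.8 CPM in NK-like and 5.67 ± 4.48 CPM in memory CD8 T-like cells (log2 difference 6.85 ± 0.19), and 5.47 CPM in Cd8-low T cells. Klra1, by contrast, averaged 83.5 ± 21.2 CPM in NK-like and 102 ± 22.5 CPM in Cd8-low T cells. Of 11 other Klr genes 6 were tested and all 6 were higher in NK-like cells, among them Klri2, a partner of Klre1, at 337 ± 23.4 CPM against 1.37 ± 1.20 CPM, and Klrc2, which encodes NKG2C, at 230 ± 53.8 against 10.8 ± 2.55 CPM. Of all genes tested 18.4% were called higher and 17.9% lower. Receptor genes with few UMIs in memory cells entered the test through the NK-like cells, as with Klrc3 at 77 UMIs against 7. Their counts therefore say little by themselves.

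The adaptors divided. Fcer1g, the partner of NKp46, averaged 1860 ± 104 CPM in NK-like and 12.6 ± 5.28 CPM in memory CD8 T-like cells and was higher (log2 difference 6.87 ± 0.12, edgeR adjusted p 6.62e-27), with 384 CPM in Cd8-low T cells. Hcst, which encodes the DAP10 partner of NKG2D, averaged 476 ± 73.8 CPM in NK-like and 516 ± 36.4 CPM in memory CD8 T-like cells and was lower in NK-like cells (log2 difference -0.46 ± 0.07, edgeR adjusted p 1.01e-05), although per UMI of the class the means lay within the SD of the NK-like libraries. Cd247 averaged 205 ± 25.7 and 208 ± 11 CPM, a log2 difference of -0.36 ± 0.09 (edgeR adjusted p 0.00274), and per UMI of the class these means too lay within the SD of the NK-like libraries. Of 10 signalling enzymes 8 were tested, 4 were higher and 2 lower in NK-like cells, against 18.4% of all genes higher and 17.9% lower. Syk, a kinase that binds phosphorylated DAP12, averaged 84.9 ± 8.35 CPM in NK-like and 0.54 ± 0.65 CPM in memory CD8 T-like cells, and Plcg2 64.4 ± 16.1 and 1.88 ± 1.85 CPM. Zap70, the related kinase of the T cell receptor, averaged 116 ± 27.4 and 167 ± 18.3 CPM (log2 difference -0.84 ± 0.11), and the phosphatase gene Ptpn6 95.1 ± 22.9 and 206 ± 23.9 CPM (-1.41 ± 0.12). Of 14 ligand genes 7 were tested, 2 were higher and 3 lower in NK-like cells, against the same shares of all genes. Whether the counts of enzymes and ligands differ from those shares was not tested. H2-D1, a class I gene whose product some Ly49 receptors bind, averaged 3370 ± 227 CPM in NK-like and 1720 ± 94.1 CPM in memory CD8 T-like cells. H2-T23, which encodes Qa-1, the ligand of CD94/NKG2A, averaged 341 ± 18.2 and 297 ± 25.9 CPM and was not called (log2 difference -0.12 ± 0.08, edgeR adjusted p 0.286), with opposite signs on the CPM and the TMM scale.

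In the other class comparisons the same lists gave fewer tested genes. Memory over naive CD8 T-like cells had 5 of 11 other Ly49 genes tested and 5 higher, 1 other Klr gene tested and higher (Klrc2), and 2 of 3 adaptors higher and 1 lower, against 17.2% of all genes higher and 13.5% lower. The receptor genes among them entered the test through the memory cells, as with Klra1 at 93 UMIs in memory and 2 in naive cells, so their count says little by itself. Innate-like T over memory CD8 T-like cells had 1 Ly49 gene tested, which was lower, and 4 of 6 enzymes higher and 2 lower, against 16.0% and 14.5% of all genes. Effector over resting Treg-like cells had no other Ly49 or Klr gene past the filter, and 0 of 2 adaptors, 2 of 6 enzymes and 0 of 6 ligands higher, with 1 enzyme and 2 ligands lower, against 17.2% of all genes higher and 16.7% lower.

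The genes with the class pattern most like each receptor were ranked by Pearson's r of log2(CPM + 1) over the 16 classes, among 9424 genes with at least 20 CPM in a class. The classes share their libraries, and r is a description. Klra8 was nearest to S1pr5 (r = 0.982), a receptor for the egress signal sphingosine-1-phosphate, followed by Styk1 (0.974) and Cma1 (0.963), which were also among the NK markers used to name the class. Ncr1 (0.956) and Klrb1c (0.945) were both nearest to Aoah. Klrc1 was nearest to Kcnj8 (0.961) and Xcl1 (0.950), a chemokine of NK and CD8 T cells, and Klre1 to Gm20743 (0.964). Tyrobp was nearest to Fcer1g (0.944), another adaptor with a tyrosine-based motif. Klrd1 was nearest to Il12rb2 (0.913), Klra7 to Samd3 (0.902), Klrk1 to Serpinb9 (0.887), an inhibitor of granzyme B, and Klrg1 to Rnf128 (0.838), a ubiquitin ligase.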

How the data were processed

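Single-cell libraries of 5' chemistry were aligned to mm10 per the submitters' processing notes, which name bcl2fastq 2.20.0, and, per the file headers, Cell Ranger 7.0.1 made the counts. The deposited matrices hold raw UMI counts per gene and barcode, and the authors' 3 B cell receptor libraries were not used here. Barcodes with at least 500 genes and at most 10% mitochondrial counts were kept and the expected share of doublets were removed by Scrublet score, since its automatic threshold marked 0% in both depleted libraries. Clustering used scanpy 1.11.5 (2000 variable genes, 30 components, 15 neighbours, Leiden resolution 1) without the 10 genes, other Klr genes or antigen receptor segments, and clusters were named from markers.

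UMIs were summed per class and library. Class contrasts used edgeR 4.0.16 (R 4.3.3) with TMM factors, the low-count filter, a library block and an adjusted p threshold of 0.05. Libraries were compared by ratios with exact binomial intervals and no test, since each group is 1 library and p-values of class contrasts measure only the spread between these 5 libraries. CPM scales a gene to the UMIs of its class and library. CPM intervals are exact Poisson and shares Clopper-Pearson, all at 95%. A gene at 0 was given a floor of 3 counts over the class. The statistics were tested on simulated data. Named genes were the 10 members, listed family genes with at least 50 UMIs in NK-like cells and the most alike genes. Klra6, with 39 UMIs in NK-like cells, was named outside this rule after its values were seen. Members and lists were chosen with earlier results of these data known. Total depth was 54715065 to 63497466 UMIs per library. Alternatives were DESeq2 1.42.0, other filters, scalings and resolutions, family genes kept and each library left out. Promoter windows come from RefSeq (GRCm38.p6, the build of mm10).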

Additional observations from a re-analysis of the deposited data

Results flagged for a closer look

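In 7 cases the ratio for one treatment lay on opposite sides of 1 with and without the other, and both 95% counting intervals left out 1. Other pairs of opposite sign had at least 1 interval that held 1. Each compares 1 library with another, so the differences were not tested, and they share libraries.

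For anti-CTLA-4 over isotype in memory CD8 T-like cells, the log2 ratio of Klra7 was -0.53 with and 0.83 without B-cell depletion, a difference of -1.36. Klrd1 had -0.15 and 0.36 (difference -0.512), Klre1 -0.42 and 1.23 (difference -1.65) and Klrk1 0.82 and -0.65 (difference 1.47). In Cd8-low T cells Tyrobp had -0.56 with and 0.83 without depletion, a difference of -1.40.

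For B-cell depletion, the log2 ratio of Klra8 in NK-like cells was 0.43 with and -0.37 without anti-CTLA-4, a difference of 0.799. Klre1 in memory CD8 T-like cells had -0.45 and 1.21, a difference of -1.65, which is the difference given above taken over the same 4 libraries. By construction all 7 differences use the same 4 glioma libraries. The isotype library, whose mitochondrial share was the lowest, is 1 of them, and its part in the differences was not tested.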

How the results depend on the processing

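Of the counts of members called, 55 of 56 alternatives gave a value within 1.5 times that reported. The exception was effector over resting Treg-like cells without the filter on low counts, where 3 members were called higher (Klra7, Klrg1 and Tyrobp) in place of 1. DESeq2 called 2002 genes in place of 3249 between memory and naive CD8 T-like cells and 1360 in place of 2156 between effector and resting Treg-like cells, and the cause was not tested. Over all alternatives the members called ranged from 9 to 10 for NK-like over memory CD8 T-like cells, from 6 to 9 for memory over naive CD8 T-like cells and from 4 to 6 for innate-like T over memory CD8 T-like cells. The class contrasts are paired by library. With no replicate block they gave 10, 6, 4 and 1 members called, as with it, and 3020, 2471, 2499 and 2191 genes, in the order NK-like over memory, memory over naive, innate-like T over memory and effector over resting Treg-like cells. The treatments could not be paired because each group has 1 library. The median log2 ratios of members in NK-like cells moved by less than the median half-width of the single members' counting intervals in 35 of 35 alternatives. No interval of the median itself was computed. The medians ranged from -0.231 to -0.111 for isotype over saline control and from -0.254 to -0.17 for depleted anti-CTLA-4 over depleted isotype. The range crossed 0 for anti-CTLA-4 over isotype (-0.12 to 0.0025), depleted isotype over isotype (-0.037 to 0.066) and depleted anti-CTLA-4 over anti-CTLA-4 (-0.128 to 0.071). Depth limits Klrg1 in NK-like cells, with 3 to 24 UMIs per library, and the 42 to 75 NK-like cells limit all ratios.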
